A study of Mus musculus with 12 samples.

Results

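Of 118075 N6-methyladenosine (m6A) peaks called in 6 mouse libraries, 535 (0.453%) lay in pseudogenes. They were the peaks that overlapped a gene of pseudogene or transcribed pseudogene type by at least 1 base and touched no protein-coding or lncRNA gene span in the RefSeq GRCm38.p6 gene table. A further 319 peaks overlapped a pseudogene but also a protein-coding or lncRNA span, and were left out. Same-strand peaks sharing 1 base or more were merged across lists, and the 535 peaks formed 208 regions in 170 pseudogenes, of which 42 were transcribed pseudogenes. Most of these genes are known by a predicted or clone name only, 129 of the 170.

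Pseudogenes are gene copies that have lost the ability to make the protein of the gene they descend from. A processed pseudogene arises when an mRNA is copied back into DNA and inserted elsewhere, so it carries the exons of its parent gene without the introns and without the promoter. m6A, a methylated adenosine in RNA, is read by proteins such as YTHDF1 and often lies in long exons and near stop codons. Because a young pseudogene and its parent gene are nearly identical in sequence, short reads of the parent mRNA can be placed on the pseudogene, and a peak there need not mean that the pseudogene is transcribed.

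The libraries were m6A immunoprecipitations of poly(A) RNA cut to about 200 nt, with 3 libraries of mouse spermatogonial stem cells (SSCs) and 3 of the cells turned from them toward a neural stem cell state (iNSCs). SSCs sustain sperm production in the testis, and here were cultured on inactivated STO fibroblasts with bFGF, GDNF, LIF and EGF. The iNSCs had received 1 µM retinoic acid for 24 h and then a medium with 10 µM SB431542, a TGF-β receptor kinase inhibitor, and 20 ng/mL bFGF. The 6 input libraries of the series were not analysed here, so the amount of each RNA is unknown, and a missing peak can mean less transcript or less methylation. In bulk RNA, fewer cells of a type and less RNA per cell cannot be told apart. The cell type field of the labels named the opposite cell type for 12 of 12 samples. The groups were taken from the sample titles, which go with the source name field. Replicates are numbered in the labels without a statement that they were separate cultures. The p-values therefore reflect how far these libraries spread, and that spread may be technical.

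Markers were checked by whether the gene carried a peak in a list. Ddx4, Zbtb16, Sall4 and Sycp3, germ cell genes, had a peak in all 3 SSC lists and in no iNSC list, whereas Dazl had one in SSC replicate 1 only and Gfra1 in iNSC replicate 3 only. Of the neural genes, Pax6 had a peak in the 3 iNSC lists only, Nes in all 6, Sox2 in the SSC lists alone and Sox1 in none. Pecam1, Cdh5, Epcam and Krt8, endothelial and epithelial genes, had a peak in every SSC list and in no iNSC list. Of the feeder and fibroblast genes Col1a1, Col1a2, Col3a1 and Thy1, between 1 and 4 had a peak in each SSC list and 1 or 2 in each iNSC list. The full lists held 27597, 19728 and 24775 peaks in SSC replicates 1 to 3 and 13913, 16002 and 16060 peaks in iNSC replicates 1 to 3. The files hold no read counts, so the sequencing depth is unknown.

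RNA sequence could be placed under a pseudogene peak at 2 microRNA genes, which RefSeq locates inside the pseudogenes Ftl1-ps1 and Gm9726. They are shown because they are copies: the same mature microRNA is annotated at other loci too, which makes the question of shared reads concrete. Capitals mark the seed, bases 2 to 8.
mmu-miR-692: aUCUCUUUgagcgccucacuc
mmu-miR-8099: cCAAGGCGugggaaagguugu
The first lies at chr13:74407121-74407141 on the plus strand (Mir692-3, GRCm38), inside a plus-strand peak of SSC replicate 3 that spanned chr13:74406396-74407317 and 99.1% of Ftl1-ps1, a copy of the ferritin light chain gene. That peak had a score of 517.22, and no other list had a peak in Ftl1-ps1. Of the 3 annotated loci of miR-692, Mir692-2 lies in another ferritin copy, Ftl2-ps, inside Grik3, and Mir692-1 lies in no gene span of the classes used. Neither of them was touched by a peak in any list.

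The second lies at chr12:93927373-93927393 on the plus strand (Mir8099-2), opposite to the minus-strand peaks of Gm9726. SSC replicate 3 had a peak over the whole 127-base hairpin, chr12:93927338-93927464, with a score of 63.90, and the peaks of iNSC replicates 2 and 3 reached 4 and 6 bases into it. The hairpin is given here as read on the strand of the peak, with GGACU, the core letters most often methylated in mRNA, in capitals.
Mir8099-2, strand of the peak: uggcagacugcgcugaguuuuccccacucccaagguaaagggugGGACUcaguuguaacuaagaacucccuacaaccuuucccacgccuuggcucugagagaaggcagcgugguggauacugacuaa
GGACU occurred once in this stretch. Among the 1005 hairpins of the RefSeq table, which have a median length of 79 bases, 82 (8.16%) held GGACU on their own strand and 64 (6.37%) on the opposite strand. The match describes these letters and is not a mapped methylation site. The other locus of the same microRNA, Mir8099-1 at chr3:95139131-95139151 on the minus strand, lies within Lysmd1, a protein-coding gene on the plus strand. SSC replicate 3 had a plus-strand peak there as well, at chr3:95138959-95139305 with a score of 85.82, and no other list had one. So in the same single list both copies carried a peak, each opposite in strand to the microRNA.

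SSC lists held about 1.97 times as many pseudogene peaks as iNSC lists. There were 138, 88 and 129 in SSC replicates 1 to 3 and 57, 68 and 55 in iNSC replicates 1 to 3, so the lowest SSC list lay above the highest iNSC list. The means were 118.3 ± 26.65 and 60 ± 7 (SD, n = 3 each; exact two-sided permutation p = 0.1, the smallest that 3 against 3 can give, and 0.1667 after Benjamini-Hochberg adjustment over 5 measures). As a share of the list, pseudogene peaks made up 0.5001%, 0.4461% and 0.5207% in SSCs and 0.4097%, 0.4249% and 0.3425% in iNSCs. The group means of the share were 0.4889% ± 0.03853 and 0.3924% ± 0.04388 (exact permutation p = 0.1, adjusted 0.1667), a smaller gap than that of the counts, since the SSC lists were longer. Without the 7-copy array on chromosome 2 described below, the difference in share fell from 0.09657 to 0.06146 percentage points (exact permutation p = 0.3).

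**Figure D1:**
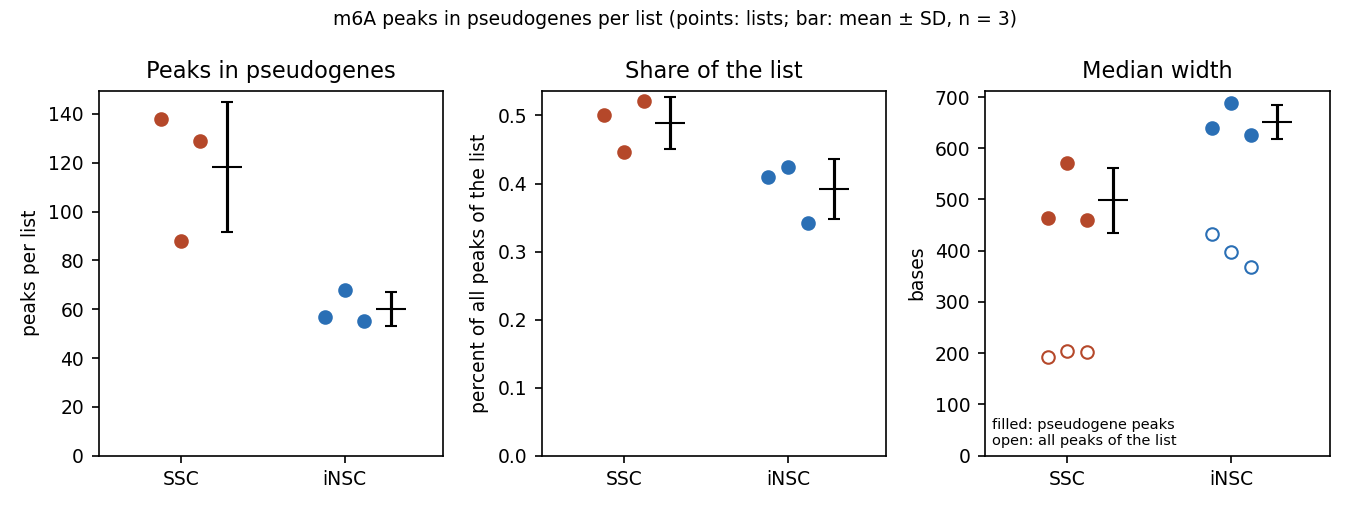
Number, share and median width of pseudogene peaks in each list; points are lists, the bar is the mean ± SD (n = 3), and open points give the median width of all peaks of the list. Counts were 88 to 138 in SSC lists against 55 to 68 in iNSC lists, and in all 6 lists the filled width point lies above the open one.

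Pseudogene peaks were wide for their lists. Their median width was 463, 572 and 460 bases in SSCs, against 193, 205 and 202 bases for all peaks of the same lists. In iNSCs it was 640, 688 and 625 bases, against 433, 397 and 368 bases for all peaks. The pseudogene peaks of SSC lists were narrower than those of iNSC lists, with means of 498.3 ± 63.81 and 651 ± 32.91 bases (exact permutation p = 0.1, adjusted 0.1667), as were all peaks. The score of a peak was deposited without a unit and is not scaled between lists. It was tested only as a rank within its own list, and raw scores are given below as descriptions. In that ranking, where 100 is the top, the median pseudogene peak stood at 61.05, 64.66 and 57.56 in SSCs and at 58.89, 58.03 and 57.12 in iNSCs. The groups overlapped (exact permutation p = 0.3, adjusted 0.375). Scores of at least 3100 behave as a ceiling and are called capped here. Of the pseudogene peaks 8.696%, 15.91% and 10.08% in SSCs and 17.54%, 19.12% and 18.18% in iNSCs were capped, each above the share for the whole list, which was 3.729% to 7.558% in SSCs and 14.96% to 17.63% in iNSCs.

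Having a peak was more frequent for pseudogenes annotated as transcribed. Of the 335 transcribed pseudogenes that lie clear of protein-coding and lncRNA spans, 37 (11%) had one, compared with 126 of 7327 other pseudogenes (1.72%). By length, a peak was found in 1.21% of clear pseudogenes of at most 1000 bases, 2.02% of those up to 3000, 4.99% of those up to 10000 and 6.18% of longer ones. These shares count genes and were not tested. Chromosome 17 had the most regions, 25, with a peak in 5.15% of its clear pseudogenes, while the X chromosome had 4 regions and a peak in 0.346%. Peaks mostly kept within the annotated span, with 466 of the 535 (87.1%) wholly inside it. No region was touched by a peak outside the chosen set, and 5 regions lay within 1000 bases of a protein-coding or lncRNA span. The median distance to the nearest such span was 20368 bases.

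The share of the pseudogene that a region filled fell with the length of the span, by which it is divided. In pseudogenes of at most 1000 bases, the 49 regions covered a median of 89.95% of the span, and 32 of them covered at least 80%. For the 50 regions in spans of 1000 to 3000 bases the median was 36.69%, and for the 42 regions in spans up to 10000 bases 11.12%. The 67 regions in longer spans covered a median of 1.043%, and none reached 80%. From the shortest to the longest spans the median region length was 489, 702, 487 and 258 bases. The fall in coverage therefore goes mostly with the longer spans. Transcribed pseudogenes had a median coverage of 1.499% over 65 regions, and the other pseudogenes 42.49% over 143 regions. Their median region lengths were 249 and 519 bases, and the spans were not matched in length.

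**Figure D2:**
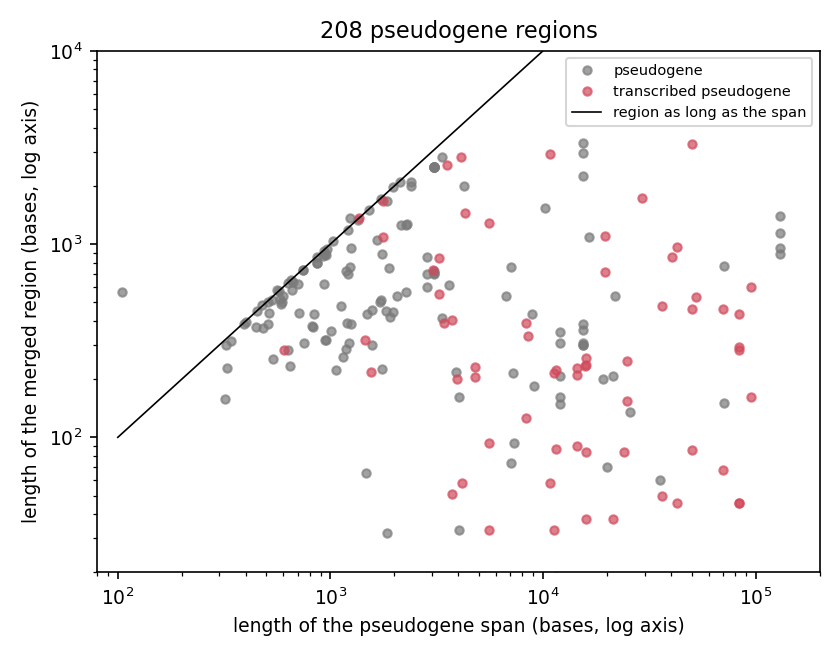
Length of each of the 208 merged regions against the length of its pseudogene span, both in bases on log axes; grey points are pseudogenes, red points transcribed pseudogenes, and the line marks a region as long as its span. Regions in spans of at most 1000 bases lie mainly near the line, with a median coverage of 89.95%, and those in spans over 10000 bases lie far below it.

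Merged regions were classed by presence. All 6 lists had a peak in 22 of the 208 regions (10.6%), about the same share as among the 48292 regions of all peaks (10.1%). SSC-only regions, with a peak in all 3 SSC lists and in no iNSC list, numbered 21 (10.1%), against 5.59% of all regions. Without the chromosome 2 array this was 14 of 199 regions (7.04%), so the array supplied much of the gap. The reverse class, iNSC-only, held 1 region (0.481%), against 3.42% of all regions. A single list supplied 93 regions (44.7%), against 46.5% of all regions; 86 of the 93 came from an SSC list and 7 from an iNSC list. At least 1 SSC list had a peak in 195 regions, and at least 1 iNSC list in 74. These splits by cell type were not counted over the regions of all peaks. The SSC lists were also longer, with a mean of 24033 peaks against 15325 in iNSC lists. Whether the splits are particular to pseudogenes cannot be told from these counts. The endothelial and epithelial markers moved with the same groups, with 4 of 4 present in every SSC list and 0 of 4 in every iNSC list. Of the germ cell markers, Ddx4, Zbtb16, Sall4 and Sycp3 had the same pattern, and Dazl and Gfra1 did not. The part of either kind of cell in these counts was not tested.

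**Figure D3:**
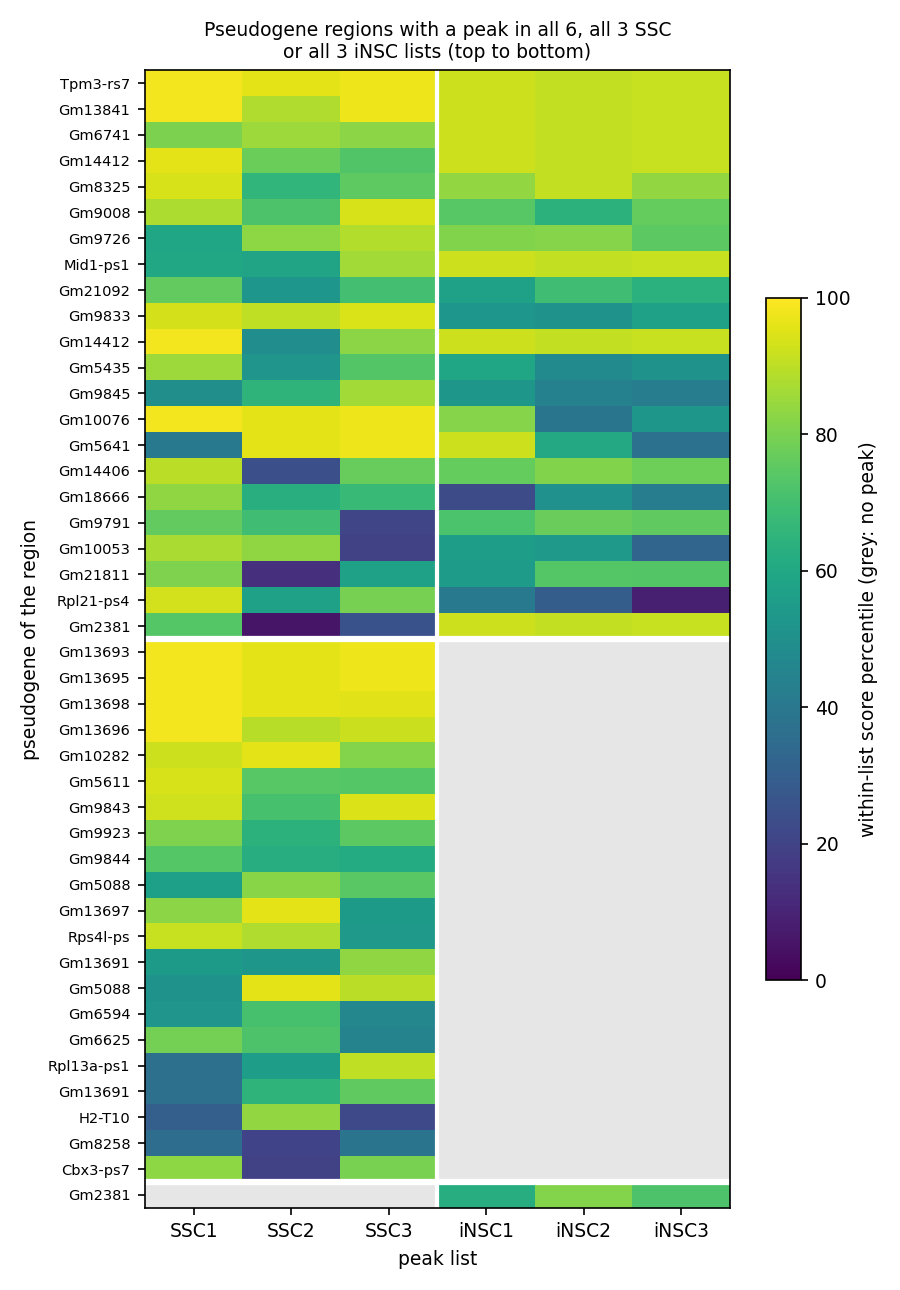
Score percentile within its own list (colour, 0 to 100; grey where there was no peak) for the regions present in all 6 lists (top block, 22), all 3 SSC lists only (middle block, 21) and all 3 iNSC lists only (bottom row, 1). Capped peaks differ in percentile between lists because the share of capped peaks differs; the 4 uppermost SSC-only regions belong to the chromosome 2 array.

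Among the regions present in every list, the one in Tpm3-rs7 stood first. Tpm3-rs7 is named as a relative of Tpm3, which encodes a tropomyosin, a protein that winds along actin filaments. Its region at chr14:113314608-113316713 covered 99.3% of the 2120-base span and was capped in 6 of 6 lists. Tpm3 itself, on chromosome 3, was also capped in all 6 lists. Gm13841 (chr5:115801555-115802194, 96% of the span) was capped in 5 lists and had a score of 1865.72 in SSC replicate 2. For Tpm3-rs7, with every list at the ceiling, no difference in score between lists can be seen. The peak extents did differ. Tpm3-rs7 was covered over 99.34% of its span in each SSC list and over 87.74%, 85.99% and 73.25% in iNSC replicates 1 to 3. That difference was not tested.

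Several all-list regions were capped in most or all iNSC lists and below the cap in most SSC lists. Gm6741 (chr17:91236787-91238116, 99.1% of the span) scored 528.44, 1404.20 and 718.34 in SSC replicates 1 to 3 and was capped in every iNSC list. Mid1-ps1, a copy on the Y chromosome of the microtubule-bound ubiquitin ligase gene Mid1, had a region at chrY:90763137-90763485 with SSC scores of 214.42, 299.22 and 987.27 and capped scores in the 3 iNSC lists. Gm14412, a span of 130245 bases on chromosome 2, had 2 such regions, at chr2:177264654-177265608 and chr2:177314520-177315909. The first scored 207.18 and 724.83 in SSC replicates 2 and 3 and was capped in the other 4 lists. The second scored 2843.19, 787.94 and 407.70 in SSCs and was capped in iNSCs. Gm8325 (chr3:60877166-60878839) fell short of this pattern, since it was capped in iNSC replicate 2 only. It scored 2737.03 and 3029.25 in iNSC replicates 1 and 3, and 1973.32, 409.84 and 459.28 in SSCs. The within-list percentiles did not all go the same way. Gm8325 stood at 93.77 in SSC replicate 1, above its 83.61, 90.92 and 83.64 in iNSCs, and the second region of Gm14412 at 95.91 in SSC replicate 1, above its 92.32, 90.92 and 91.77 in iNSCs. In SSC replicate 1 the capped first region of Gm14412 was likewise above the iNSC lists, at 98.05. Scores are not scaled between lists and were not tested, so these values describe the lists only.

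The opposite order was seen in Gm9833, whose synonym points to Myef2, a repressor of the myelin basic protein gene. Its region (chr3:10088173-10089618) scored 1855.83, 2332.00 and 2521.74 in SSCs and 435.00, 465.39 and 555.14 in iNSCs. The within-list percentiles went the same way, 90.35 to 94.53 in SSCs and 51.14 to 57.12 in iNSCs. How many other all-list regions separate the groups in this way was not counted, and the difference was not tested. Gm9008 and Gm5435 showed neither order. Gm9008 (chr6:76496357-76497631) scored 931.14, 564.70 and 2278.96 in SSCs and 1369.90, 941.21 and 1779.23 in iNSCs. For Gm5435 (chr12:82495419-82495894) the scores were 762.80, 231.68 and 418.82 in SSCs and 596.93, 398.65 and 407.18 in iNSCs. Gm9726 (chr12:93927116-93929102), the pseudogene that holds Mir8099-2, had best scores of 209.85, 1198.00 and 1185.88 in SSCs and 2196.37, 2968.59 and 1600.37 in iNSCs. The groups overlapped in the within-list percentile, where SSC replicate 3 was highest at 88.48. Gm10076 and Gm5641, also in all 6 lists, were chosen after their values were seen. Gm10076 (chr14:105681828-105682211) was capped in the 3 SSC lists and scored 2357.34, 252.84 and 455.66 in iNSCs. Gm5641 (chr3:54481429-54482923) differed within both groups, with 122.25 in SSC replicate 1, capped peaks in SSC replicates 2 and 3 and in iNSC replicate 1, and 746.07 and 219.07 in iNSC replicates 2 and 3.

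The SSC-only regions were led by a tandem array on chromosome 2. It holds 7 pseudogenes with predicted names, Gm13698, Gm13693, Gm13695, Gm13696, Gm13694, Gm13697 and Gm13691, each 3054 bases long and starting 5810 bases after the one before, from chr2:83955605 to chr2:83993518. The nearest coding gene is Zswim2. In the first 5 copies, every SSC list had a single peak that began at base 88 of the copy and ended at base 2580, 2493 bases in all. Of these 15 peaks the lowest scores were 1771.76 and 2082.33, both in Gm13696, and 3060.10 in Gm13698; the others were capped. The edges were thus the same to the base in 5 copies and 3 libraries. Whether the same reads were placed on several copies was not tested. Edges shared between libraries also occurred outside the array: those of Gm13841, Gm9008 and Gm8325 were the same to the base in all 6 lists.

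The last 2 copies differed from the first 5. Gm13697 had pieces with scores of 548.22 and 617.33 in SSC replicate 1, a piece of 699.34 and a capped one in replicate 2, and the full 2493-base peak with a score of 196.27 in replicate 3. Gm13691 was split into 3, 3 and 2 pieces, with scores from 112.80 to 775.80. So across these 2 copies and the 3 SSC lists, Gm13697 in replicate 3 alone had the edges of the first 5, and the others came in pieces. In iNSC lists the array was nearly empty, with a peak in 1 of the 7 copies. Gm13694 had a 730-base peak with a score of 103.65 in iNSC replicate 1 and a 624-base peak with a score of 130.92 in iNSC replicate 3, both ending at base 2580. Because of these, the region in Gm13694 was not SSC-only, and the array gave 7 SSC-only regions of 9.

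**Figure D4:**
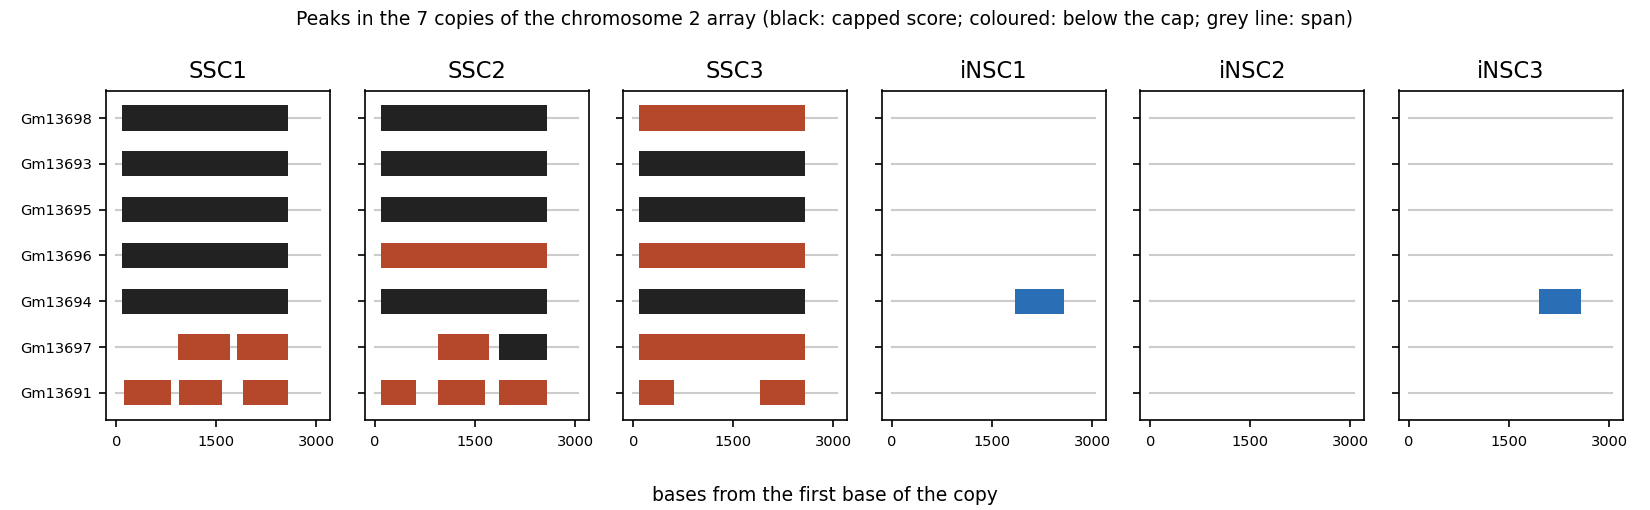
Peaks in the 7 copies of the chromosome 2 array, 1 panel per list, drawn by distance in bases from the first base of the copy; black bars are capped, coloured bars are below the cap, and the grey line is the 3054-base span. Bars from base 88 to base 2580 fill the first 5 copies in every SSC panel, while the iNSC panels hold 2 short bars, both in Gm13694.

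Other SSC-only regions were single. Gm10282 (chr8:72304574-72305276) scored 1610.28 and 665.35 in SSC replicates 1 and 3 and was capped in replicate 2, and Gm5611 (chr9:17030140-17030899) scored 2071.32, 630.59 and 421.49 in the 3 lists. Gm9843 (chr16:76403209-76403712) filled 99.4% of its 506-base span, with scores of 1742.72, 532.13 and 2584.19. Gm9923 (chr10:72309225-72310081) scored 539.58, 383.89 and 447.88. The pseudogene itself was marked in both cell types. Its other region (chr10:72310721-72311323) scored 110.68 and 177.08 in SSC replicates 1 and 3 and 189.85, 571.14 and 536.03 in iNSCs. In their own lists the SSC-only regions of these 4 pseudogenes stood between 64.2 and 96.06 in percentile. They were named because their lowest percentile was among the highest of the SSC-only regions, so this range follows from the choice. Gm9844, Gm6594, Gm6625 and Gm8258 were SSC-only as well. A pair of regions in Gm5088, which a synonym ties to the poly(A)-binding protein gene Pabpc4l, was chosen after its values were seen. Its scores were 192.91, 1115.42 and 443.24 in one region and 165.34, capped and 1350.72 in the other, and Pabpc4l itself had a peak in SSC replicate 1 only.

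The single iNSC-only region lay in Gm2381, a transcribed pseudogene on chromosome 7 of 50408 bases. At chr7:42816827-42817288, the end of the annotated span, the iNSC scores were 711.23, 2914.59 and 1339.99. Just beside it, chr7:42817324-42820603 was a region of all 6 lists, 3280 bases long, capped in the 3 iNSC lists and with scores of 374.98, 57.62 and 87.80 in SSCs. Gm2381 was therefore marked in both cell types. Within the all-list region, the SSC peaks covered 2240, 1032 and 993 bases and the iNSC peaks 3117, 2831 and 3280 bases. Another long transcribed pseudogene region, in 4632415L05Rik (chr3:19894871-19897702), was capped in the 3 iNSC lists, scored 127.34 and 167.42 in SSC replicates 1 and 3, and had no peak in SSC replicate 2. The long region of Tmem181c-ps (chr17:6610103-6613026) had a peak in SSC replicate 1 (279.13) and in iNSC replicate 3 (298.43) only.

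Erdr1, chosen after its values were seen, had peaks in every iNSC list and in no SSC list, yet in no single region. Its region at chrX:170010674-170011063 scored 107.06 in iNSC replicate 1 and 1392.05 in iNSC replicate 3. The region at chrX:170018674-170018799 scored 145.71 in replicate 2 and 640.25 in replicate 3. Neither region met the rule of 3 lists.

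A second pair of copies lies on chromosome 8. Gm21811 and Gm21092 are 15384 and 15374 bases long and start 431142 bases apart. Both had a peak of 299 bases at bases 5315 to 5613 of the copy in all 6 lists, and these are the regions chr8:20141597-20141895 and chr8:20572739-20573037. The edges were the same, but the scores were not. Gm21811 scored 548.62, 70.02 and 213.74 in SSCs and 489.14, 1642.64 and 1436.54 in iNSCs. For Gm21092 the scores were 422.62, 234.89 and 354.08 in SSCs and 547.28, 1274.13 and 810.88 in iNSCs. Further along, both held a long region. That of Gm21092 (chr8:20578681-20581999, 3319 bases) was the longest of all and scored 1692.78 in SSC replicate 1 and 517.22 in iNSC replicate 1, was capped in iNSC replicates 2 and 3, and had no peak in SSC replicates 2 and 3. That of Gm21811 (chr8:20147549-20150494) scored 2219.21 and 165.89 in SSC replicates 1 and 2 and 821.06 and 2122.29 in iNSC replicates 1 and 3, and was capped in iNSC replicate 2.

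Among pseudogenes with peaks, 30 pairs on the same chromosome had spans equal in length to within 1%, and in 18 of them a list had peaks at the same place in both copies, with a tolerance of 10 bases. Those 18 pairs came from 11 pseudogenes. These pseudogenes held 20 regions and 66 peaks in all, including peaks without a match in another copy. The remaining pair outside the arrays on chromosomes 2 and 8 was Gm21104 and Ccl19-ps2 on chromosome 4, with a 46-base peak at bases 14471 to 14516 of both in SSC replicates 1 and 3. In SSC replicate 3 the score was 221.26 in both, and in replicate 1 it was 96.06 and 208.10. Over all pseudogene peaks, 16 (2.99%) had the same width and uncapped score as another peak of their own list, against 3.34% of all 118075 peaks. By list, the share of pseudogene peaks with such a twin was 5.072%, 1.136% and 6.202% in SSCs and 0% in each iNSC list. For all peaks it was 7.711%, 1.298% and 6.002% in SSCs and 0.04313%, 0.1625% and 0.2242% in iNSCs.

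To ask whether a pseudogene peak comes with a peak in its parent, the parent was taken as the protein-coding gene named before "-ps" in the symbol. This gave 19 pairs, and 14 of the 19 parents had a peak in at least 1 list, compared with 13527 protein-coding genes (61.8%) overall. Counted by list, a pseudogene of these pairs had a peak 59 times. In 33 of them the parent also had one, and in 26 the peak was in the pseudogene alone. The parent alone had a peak 24 times. Where both had one, the parent's best score was higher in 16 cases and the pseudogene's in 12. The share of pseudogene peaks whose parent also had a peak in the list was 58.82%, 66.67% and 58.82% in SSCs and 62.5%, 54.55% and 85.71% in iNSCs. These shares overlapped (61.44% ± 4.528 and 67.59% ± 16.2, SD, n = 3; exact permutation p = 0.8, adjusted 0.8) and rest on 7 to 17 peaks per list. Among all protein-coding genes the share with a peak was 46.22%, 38.11% and 46.36% for SSCs and 30.64%, 33.15% and 32.78% for iNSCs, below the parent share of the same list each time. The measures are unlike, because the parent share counts peaks and the other share counts each gene once. A pseudogene with several peaks therefore weighs more, as Mid1-ps1 with 4 of the 17 peaks in SSC replicate 3. A wider rule that also used "-rs" names and synonyms, added after seeing the data, gave 27 pairs, 21 parents with a peak, and both peaks in 48 of 80 cases.

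**Figure D5:**
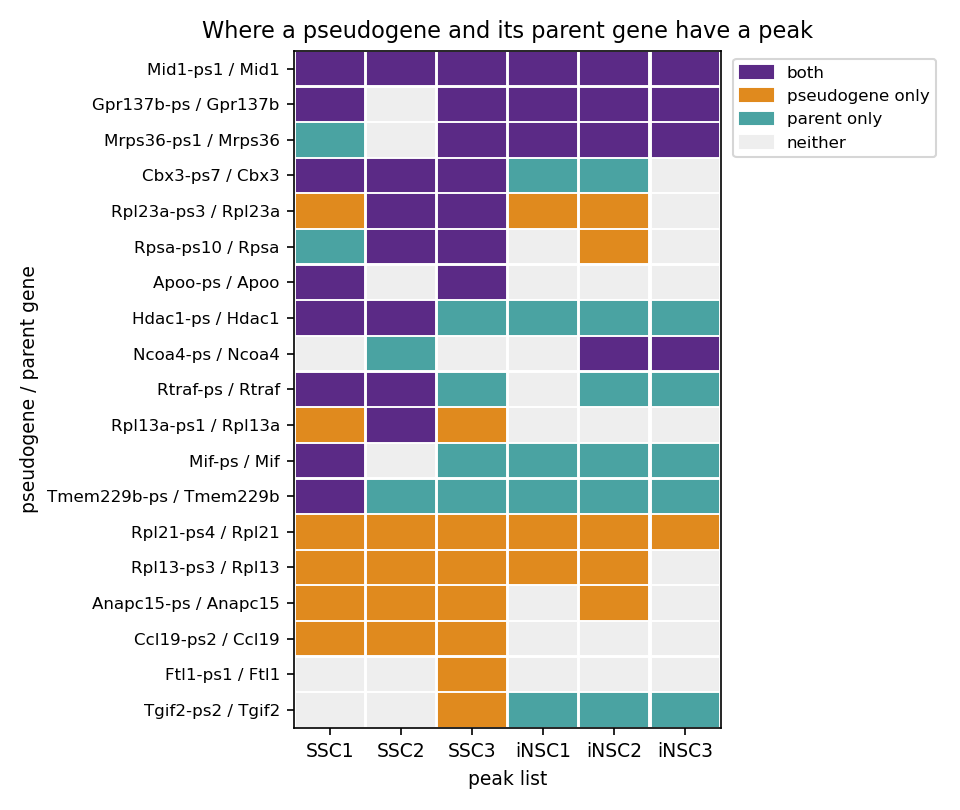
Presence of a peak in each of the 19 pseudogenes with a parent named by symbol and in that parent, by list; purple marks both, orange the pseudogene only, teal the parent only, and grey neither. Both had a peak in 33 cells and the pseudogene alone in 26, and 6 pairs at the bottom have no purple cell.

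In 10 pairs the parent had a peak in every list in which the pseudogene had one. Mid1-ps1 and Mid1 had peaks in all 6 lists. Gpr137b-ps and Gpr137b, which encodes a lysosomal membrane protein, had peaks in the same 5 lists, and in SSC replicate 1 their best scores were equal, 362.85. Cbx3-ps7 was an SSC-only region that filled 99.1% of its span, with scores of 634.66, 82.03 and 604.55. Its parent Cbx3, a heterochromatin protein gene, was capped in SSC replicate 1, scored 2097.80 and 142.34 in SSC replicates 2 and 3, and also had a peak in iNSC replicates 1 and 2, where the pseudogene had none. Hdac1-ps, a copy of a histone deacetylase gene, scored 762.30 and 1075.90 in SSC replicates 1 and 2, while Hdac1 had a peak in all 6 lists. Ncoa4-ps, a copy of the gene for the receptor that delivers ferritin to autophagy, had peaks in iNSC replicates 2 and 3 only, with scores of 1553.78 and 77.83, and Ncoa4 scored 2780.95 and 159.69 there. The others were Mrps36-ps1, Apoo-ps, Rtraf-ps, Mif-ps and Tmem229b-ps.

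In 6 pairs the peaks never occurred together. The peak of Rpl21-ps4 was in all 6 lists, with scores of 1835.79, 284.16 and 592.39 in SSCs and 250.30, 165.06 and 69.68 in iNSCs, and Rpl21 had none in any. Rpl13-ps3 was capped in the 3 SSC lists, scored 1169.09 and 95.39 in iNSC replicates 1 and 2, and Rpl13 had no peak in any list. Anapc15-ps, a copy of a gene for a subunit of the anaphase-promoting complex, had a peak in 4 lists with scores of 505.60, 926.24, 133.91 and 109.58, and Anapc15 had none on its strand. Ccl19-ps2 and Ftl1-ps1 were also marked without the parent. Tgif2-ps2 had a peak in SSC replicate 3 and Tgif2, a homeobox repressor gene, in the 3 iNSC lists. A pseudogene peak was thus not always accompanied by one in the parent. From the peak lists alone, reads of the parent placed on the copy and reads of a methylated pseudogene RNA cannot be told apart.

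Ribosomal protein pseudogenes were the largest named family, with 7 regions and a median coverage of 89.02% of the span. The median over all pseudogene regions in spans of at most 1000 bases was similar, 89.95%. Ribosomal protein mRNAs are short and abundant, and the mouse genome holds very many processed copies of them. Rpl23a-ps3 (chr14:34170655-34171168) was capped in SSC replicates 1 and 2, scored 2125.12 in SSC replicate 3 and 742.20 and 1496.97 in iNSC replicates 1 and 2, and was absent from iNSC replicate 3. Rpl23a had a peak in SSC replicates 2 and 3 only. Rps4l-ps and Rpl13a-ps1 were SSC-only, with scores of 1484.71, 1813.47 and 192.91 and of 113.23, 272.08 and 1459.96. All 7 had a peak in at least 1 SSC list, and 4 in at least 1 iNSC list, against 195 and 74 of the 208 pseudogene regions. The remaining families were small. Families were assigned by the start of the symbol, so members such as Tpm3-rs7, Mid1-ps1, Cdc34b and Anapc15-ps were counted as other. Glycolysis genes gave Gpi-ps (144.52 and 787.78 in SSC replicates 1 and 3) and Pgk1-rs7 (66.56 in SSC replicate 3). The chromatin protein relative Hmgb1-rs17 had a peak in SSC replicate 1 (120.84), and Znf41-ps had 2 regions in 1 SSC list each (59.66 and 139.36). Ftl1-ps1 was the ferritin member.

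Some pseudogenes of the table are genes that work in other mouse strains or are named for a function, and these were chosen after their values were seen. Mx1, an interferon-induced antiviral GTPase gene that is broken in common laboratory strains, had peaks in all 3 SSC lists with best scores of 77.67, 95.32 and 53.38 and none in iNSC lists. Those peaks fell in 4 regions, of which none was shared by all 3 lists. Mx2 had peaks in SSC replicate 3 only (80.21 and 64.92), and Oas1b, another interferon-induced gene, in SSC replicate 1 only (up to 180.78). C4a, a complement gene, had peaks in SSC replicates 1 and 2, with best scores of 101.54 and 63.59. The region shared by H2-T10 and BC023719, in the major histocompatibility complex, was SSC-only with scores of 95.83, 1250.00 and 81.60. Apart from that of SSC replicate 2 in H2-T10, these scores lay in the lower part of their lists or near its middle.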

How the data were processed

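In all, 6 deposited peak lists were used, 1 per m6A IP library. Per the labels' protocols the libraries were made with a directional kit. The tools cutadapt 1.9.3 and HISAT2 2.0.4 and the build mm9 appear in the submitters' processing notes; for the peak caller, its threshold and its use of input, nothing is given in the sources used here. Each list gives chromosome, start, end, name, score and strand. The deposited score has no stated unit; it ran from 50.00 to 3233.06 and was tested only as a rank within its list. Coordinates were taken as GRCm38, 1-based, because 7.802% of peaks had an edge on a GRCm38.p6 gene edge, against 0.0144% after a shift of 10000 bases.

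The gene table placed 10429 pseudogenes, 21900 protein-coding and 12727 lncRNA genes. A gene had a peak when 1 base of its span was overlapped on its strand, or on either strand where the sources gave none. Exact two-sided permutation tests compared group means over 3 against 3 lists. Code ran in Python 3.11.15 with pandas 2.3.3 and was tested on simulated data. The rule for naming regions took up to 12 in all lists, up to 8 each SSC-only and iNSC-only, 2 per family and the 5 longest. Regions of the first 3 classes were taken by their lowest within-list percentile, highest first. Other regions are named too, among the SSC-only regions, the array, the copy pairs, the parent pairs and the families. Not all of those are marked in the text. The members and lists were chosen with earlier results of these data known. Alternatives were the better-scoring 50% of each list, equal list length, 50% overlap, 2 of 3 lists, the replicate block and leaving out each list. Replicate numbers did not pair the lists: same-numbered correlations of peak presence over all regions, as deviations from group means, were 0.012, -0.002 and 0.032.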

Additional observations from a re-analysis of the deposited data

How the results depend on the processing

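The differences in pseudogene peaks per list, in their share and in their median width kept their sign in 11 of 11 alternatives each, ranging from 23.33 to 73.5 peaks, 0.06146 to 0.1677 percentage points and -253.3 to -75.33 bases (SSC minus iNSC). The difference in median percentile, 3.076, rose to 8.387 with the better-scoring 50% (exact permutation p = 0.1), and was 1.213 at equal list length and -0.3558 without the chromosome 2 array, an alternative chosen after seeing the data. The difference in parent share, -6.149 percentage points, moved most at equal list length (-30.85), in the better-scoring 50% (-20.17) and under the wider parent rule (-15.28). It was -2.48 with parent peaks on either strand, and ranged from -12.67 to 2.915 when a list was left out, the latter without iNSC replicate 3. SSC-only regions, 21, became 48 when 2 of 3 lists sufficed and 21 to 38 when a list was left out, 38 without SSC replicate 2. Regions in all lists, 22, fell to 10 in the better-scoring 50% and 14 at equal length (13913 peaks). The single iNSC-only region became 3 in the better-scoring 50%, 5 at equal length, 6 with 2 of 3 lists and 2 to 4 when a list was left out. With the replicate block the difference in peaks per list was 58.33 (exact sign-flip p = 0.25, the smallest 3 pairs allow), and the block changed no call.

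The strand of the pseudogenes and the gene descriptions were not in the tables used, so the test by pseudogene strand and its alternatives were not run, and the symbol rule was the parent rule itself. The lists carry no depth, so a missing peak cannot be told from one below the threshold.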
